A study of Homo sapiens with 12 samples.

Results

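The interleukin-1 family cluster on the long arm of human chromosome 2 was examined for trimethylation of histone 3 at lysine 27 (H3K27me3) in SH-SY5Y cells. The 9 genes IL1A, IL1B, IL1RN, IL1F10, IL36A, IL36B, IL36G, IL36RN and IL37 were chosen by name, as clustered members of the family, and are 9 of the 20033 protein-coding genes in the annotation (GENCODE release 44, genome build hg38). Chromatin immunoprecipitation (ChIP) was done with an H3K27me3 antibody in 3 genotypes, the Tau expressing parental cells (WT) and 2 lines with a knock-out of the Tau gene MAPT (Tau-KO), named 231K and 232P, each with 2 replicates that the study calls biological. All groups were the same untreated cell line in the same medium. SH-SY5Y is an established human neuroblastoma line used as a neuronal cell model, and whether each Tau-KO line is 1 clone is not given in the sources used here. Each of the 6 ChIP samples had its own list of peaks, which are intervals where reads pile up above the local background, and the 6 input samples were not analysed here.

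Values of a genotype are given for replicate 1 first and then for replicate 2. WT had 285826 and 222191 peaks, 231K had 271413 and 212347, and 232P had 147118 and 199677. The lists give no read totals. The smallest peak width in each list was taken as the fragment length, which was not measured here. The lowest background in each list, divided by that width, gives a relative depth. It was 100% in WT replicate 1 as the deepest library and 66.6% in WT replicate 2, 94.8% and 68.7% in 231K, and 68.1% and 56.9% in 232P. The replicate 1 libraries had fragments of 175 to 179 bp and the replicate 2 libraries of 240 to 262 bp, so differences of the window and of IL1B are also given within each replicate number. 232P replicate 1 stood apart, with the fewest peaks and 2.39% of the genome under a peak, against 6.69% to 9.88% in the other 5 samples. The differences of the window's and of IL1B's covered share, and the marks lost or gained in 232P, are also given without it. Peak heights are not. In the lists labelled 232P the peak names start with 231P, which the study names as a further Tau-depleted line, so which of these lines the 232P values belong to cannot be told apart from the lists, and the labels were followed. MAPT had no peak in any sample, WT included, so the lists do not check the knock-out. The lists hold no RNA and do not check the cell type either.

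H3K27me3 is written by Polycomb repressive complex 2 and marks genes held silent in a cell type, often over long domains. The interleukin-1 family are small secreted proteins of innate immunity. IL1A and IL1B activate the interleukin-1 receptor, IL1RN encodes its antagonist, and IL36A, IL36B and IL36G activate a related receptor that IL36RN blocks, while IL37 and IL1F10 encode cytokines known mainly as dampers of inflammation. These genes are mostly expressed in myeloid cells and in epithelia such as the skin, and IL1A and IL1B are part of the secreted programme of senescent cells.

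IL1A had no peak in any of the 6 samples, and the first peak past its start lay in or within 1 kb of its neighbour IL1B in each of them. The 250 bases before the outermost annotated start of IL1A, IL1B and IL37 are shown 5′ to 3′, since they stand outside, at the edge of and inside the domain. They lie at chr2:112784494-112784743 on the minus strand, at chr2:112836817-112837066 on the minus strand and at chr2:112910915-112911164 on the plus strand of hg38. Capitals mark the dinucleotide CG, which reads the same on both strands.
IL1A: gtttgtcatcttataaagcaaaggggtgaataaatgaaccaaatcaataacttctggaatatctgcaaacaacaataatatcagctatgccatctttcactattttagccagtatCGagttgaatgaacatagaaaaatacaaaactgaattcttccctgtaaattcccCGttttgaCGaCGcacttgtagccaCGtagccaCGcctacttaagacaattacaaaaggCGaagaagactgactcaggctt
IL1B: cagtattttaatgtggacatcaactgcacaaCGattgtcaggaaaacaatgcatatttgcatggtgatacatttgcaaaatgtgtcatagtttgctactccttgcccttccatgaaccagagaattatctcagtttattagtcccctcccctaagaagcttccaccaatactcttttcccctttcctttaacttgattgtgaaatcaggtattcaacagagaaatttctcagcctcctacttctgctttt
IL37: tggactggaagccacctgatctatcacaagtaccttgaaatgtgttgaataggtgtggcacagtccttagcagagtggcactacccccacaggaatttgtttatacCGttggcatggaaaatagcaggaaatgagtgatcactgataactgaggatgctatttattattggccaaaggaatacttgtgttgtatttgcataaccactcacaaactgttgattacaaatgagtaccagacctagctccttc
The stretch before IL1A held 7 CG, that before IL1B held 1 and that before IL37 held 1. The other 6 members held 0 to 5, with 0 at IL36RN and 5 at IL1RN. All 9 were below the median of 14 over the same stretch of all 20033 protein-coding genes, and 68.5% of those held at least the 7 CG of IL1A. Over the 2281 genes with a peak at a start site in all 6 samples the median was 5, and over the 15637 genes with none it was 15. A peak lay over the stretch itself in 0 samples at IL1A, in 5 at IL1B, all but 232P replicate 1, and in 6 at IL37.

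The cluster spans chr2:112773925-113134016, and with 20 kb on each side the window is 400.1 kb long. The window had 43.2% and 51.5% of its bases under a peak in the WT replicates, 40.8% and 53.7% in 231K, and 15.4% and 40.1% in 232P. Over the whole genome the same lists covered 7.27% and 9.62%, 6.69% and 9.88%, and 2.39% and 7.21%. The window was thus 5.94 and 5.35 times as covered as the genome in WT, 6.09 and 5.43 times in 231K, and 6.43 and 5.56 times in 232P, so in each sample it was far above its own list. Of 7156 stretches of the same length across the genome, 3.95% to 5.18% were at least as covered, depending on the sample, so the cluster is among the heavily marked parts of the genome but not alone. The number of peaks in the window was 180 and 116 in WT, 150 and 88 in 231K, and 123 and 115 in 232P.

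**Figure D1:**
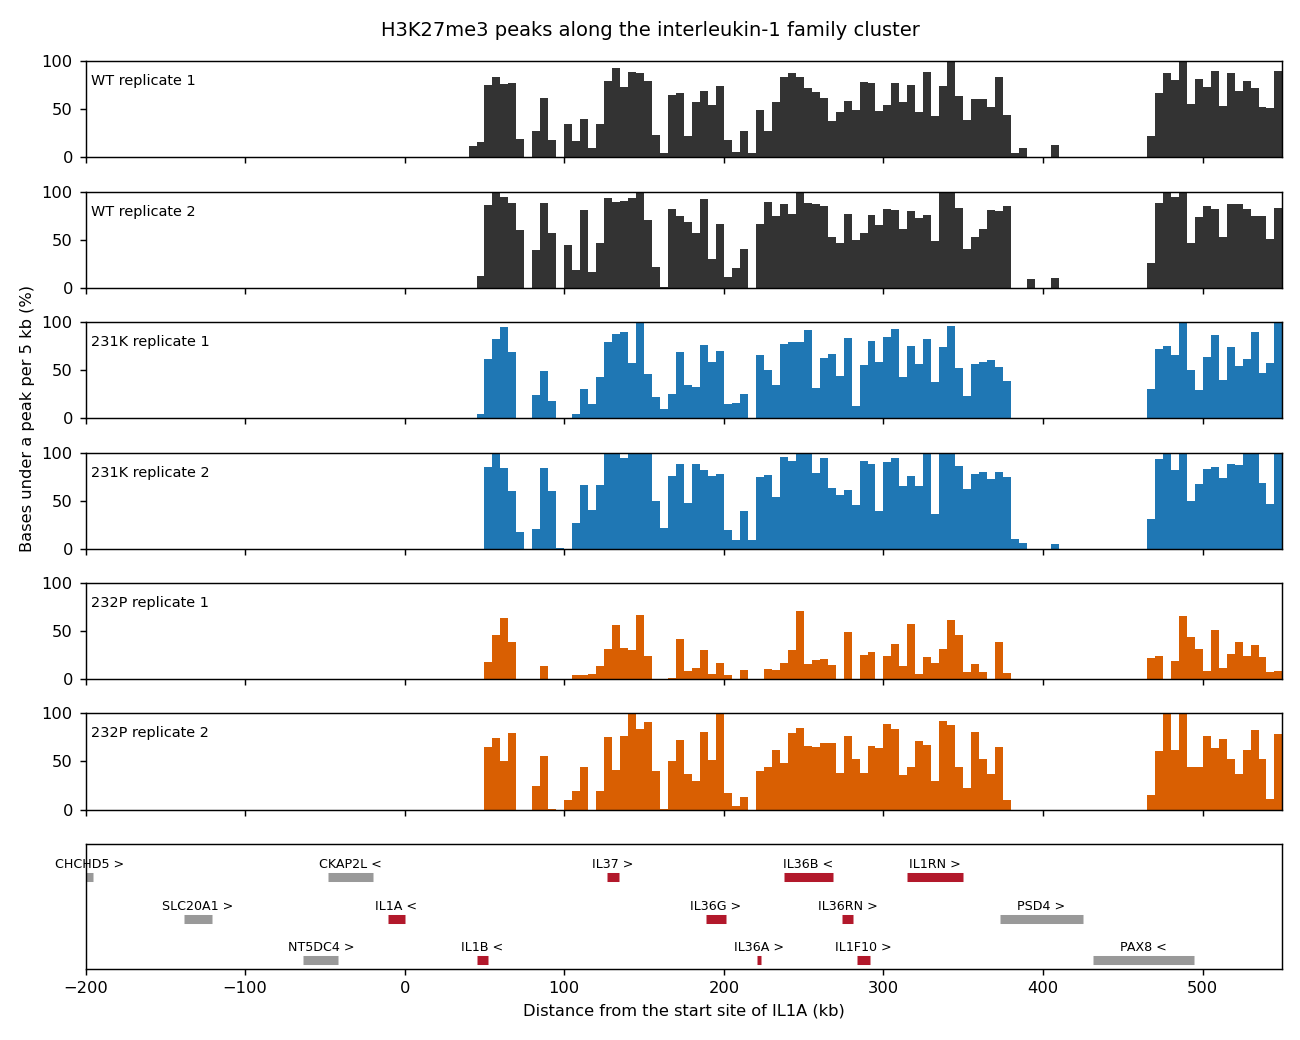
Bases under an H3K27me3 peak (%) in bins of 5 kb, by distance from the IL1A start site (kb), with 1 track per sample and gene bodies below (members in red, other genes in grey, arrowheads for the strand). All 6 tracks are empty over IL1A and fill from IL1B to past IL1RN, at lower height in 232P replicate 1.

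The left edge of the peaks lay at IL1B. IL1A (chr2:112773925-112784493, minus strand), whose product acts as an alarm signal of damaged cells, had no peak over its body or within 1 kb of it in any sample. The first peak past its start began 44.4 kb and 49.4 kb away in WT, 46.2 kb and 50.8 kb in 231K, and 52.8 kb and 51.0 kb in 232P. IL1B (chr2:112829751-112836816, minus strand) starts near that edge, and the first peak began inside or just past its 3′ end in 5 samples. Its first base lay 7.91 kb and 2.92 kb downstream of the IL1B start in WT, 6.08 kb and 1.55 kb in 231K, and 1.29 kb in 232P replicate 2. In 232P replicate 1 the first peak began 0.46 kb upstream of the start, and 22.2 kb without a peak parted the peaks upstream of IL1B from the longer run that began at base 112893889 of chromosome 2. On the other side of the edge no peak was found for 2.09 Mb and 2.61 Mb in WT, 2.60 Mb and 2.61 Mb in 231K, and 7.85 Mb and 2.61 Mb in 232P. Empty stretches of that length are not rare, as chromosome 2 held 5 to 29 gaps at least as long in the same lists. Whether reads can be placed equally well on both sides of the edge was not tested.

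The neighbours shared this division. CKAP2L, which lies partly in the window to the left of IL1A, and NT5DC4, SLC20A1 and CHCHD5 beyond it had no peak in any sample. On the right, peaks ran past IL1RN into PSD4. PSD4 had a peak at a start site in all 6 samples, with 10.8% and 13.6% of the gene covered in WT, 5.95% and 12.8% in 231K, and 2.23% and 3.49% in 232P. PAX8, a developmental transcription factor gene, was covered over 32.3% and 35.7% in WT, 30.7% and 35.7% in 231K, and 14.0% and 30.1% in 232P. The next gene, ZNG1B, had none. From the body of IL1B to the end of IL1RN (304 kb), 53.2% and 63.8% of the bases were covered in WT, 50.4% and 65.7% in 231K, and 19.7% and 49.6% in 232P. The stretch between IL36G and IL36A (19.8 kb) was thinner, at 11.2% and 17.7% in WT, 15.8% and 15.7% in 231K, and 3.43% and 10.5% in 232P.

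A gene was called marked when a peak touched its body or the 1 kb on each side, and marked at the TSS when a peak touched the 1 kb on each side of any annotated start site. By either rule 8 of the 9 members were marked in 5 samples and 7 in 232P replicate 1, where IL36A had no peak. Among all protein-coding genes 19.7% to 23.3% were marked and 14.5% to 18.4% were marked at the TSS, depending on the sample. The members share 1 domain and are not independent of each other, so these shares describe 1 region and were not tested.

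Among the activating ligands, IL1B, the precursor cytokine released after cleavage by caspase 1, was covered over 39.8% and 37.2% in WT, 23.4% and 28.1% in 231K, and 4.94% and 23.7% in 232P, counted over the gene with 1 kb on each side. It was lower in all 4 Tau-KO samples than in both WT samples. IL36G (chr2:112973203-112985658, plus strand), an agonist made by keratinocytes, was covered over 58.8% and 50.2% in WT, 58.5% and 69.6% in 231K, and 11.2% and 67.9% in 232P. The groups overlapped, and the 232P replicates lay furthest apart of the 3 genotypes. IL36A (chr2:113005459-113008044, plus strand), the shortest member, was covered over 45.6% and 63.3% in WT, 62.7% and 75.9% in 231K, and 0% and 43.3% in 232P. IL36B (chr2:113022089-113052867, minus strand) was covered over 71.2% and 81.8% in WT, 71.1% and 89.6% in 231K, and 28.0% and 71.2% in 232P. For IL36A both 232P samples lay below both WT samples, while for IL36B 232P replicate 2 and WT replicate 1 were alike.

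Among the antagonists and dampers, IL1RN (chr2:113099315-113134016, plus strand), the longest member, was covered over 70.0% and 77.7% in WT, 65.4% and 78.4% in 231K, and 34.9% and 60.3% in 232P. IL36RN (chr2:113058638-113065382, plus strand) was covered over 62.5% and 71.9% in WT, 59.9% and 66.1% in 231K, and 27.9% and 75.6% in 232P. For IL1RN the 232P samples were the lowest of the 6, and for IL36RN they were the lowest and the highest. IL1F10 (chr2:113067970-113075843, plus strand) was covered over 74.3% and 58.8% in WT, 49.4% and 74.5% in 231K, and 24.2% and 42.4% in 232P. IL37 (chr2:112911165-112918882, plus strand) was the most covered member in WT and 231K, with 91.0% and 89.4% in WT, 86.6% and 100% in 231K, and 44.8% and 59.4% in 232P. At both genes the 232P samples lay below the other 4.

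**Figure D2:**
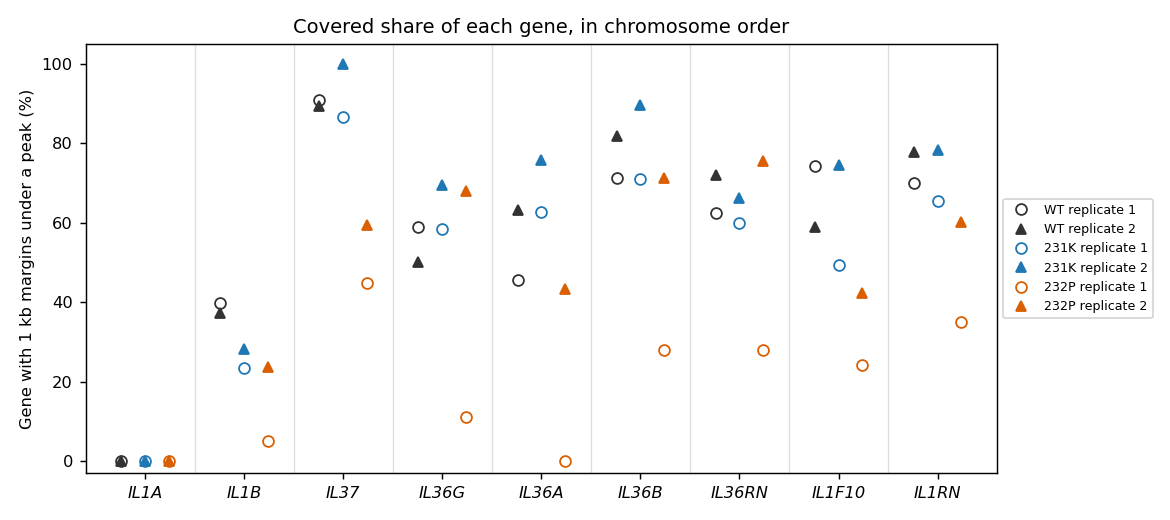
Share of each gene with 1 kb on each side that lies under a peak (%), members in chromosome order, circles for replicate 1 and triangles for replicate 2 of WT (black), 231K (blue) and 232P (orange). IL1A is at 0 in all samples, and IL1B is lower in the 4 Tau-KO samples than in WT.

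IL1B was the only member of the 8 with a peak whose covered share was lower in every Tau-KO sample than in both WT samples. Among the 5503 protein-coding genes marked in any sample, 9.21% met the same condition, so 1 of 8 is near the background. The count was 2 with peaks joined within 1 kb, where IL1RN was added, and 4 without 231K replicate 2. The share of the genes under these settings is not given. The WT mean of IL1B was 38.5% ± 1.85 (SD, n = 2). The mean of 231K was 25.7% ± 3.34 and that of 232P was 14.3% ± 13.3 (SD, n = 2 each). The difference of Tau-KO from WT was -18.5 percentage points, and -13.5 points without 232P replicate 1. IL1B was singled out for this separation, so it is given with no test. Within replicate 1 it was -25.7 points and within replicate 2 it was -11.3 points. With summits thinned to equal depth IL1B was still lower in all 4 Tau-KO samples, with a difference of -15.2 points. With only peaks of a q-value under 0.05 the difference was -13.4 points and the groups were barely apart. WT replicate 1 fell from 39.8% to 29.7%, against 28.1% in 231K replicate 2. With peaks joined within 1 kb the groups were also apart, with a difference of -27.8 points. With lists of equal length the groups overlapped and the difference was -10.8 points, and with peaks of a -log10 q-value of 5 or more alone it was 0.626. Divided by the covered share of the genome in the same list, IL1B stood at 5.48 and 3.87 in WT, 3.49 and 2.84 in 231K, and 2.06 and 3.29 in 232P, lower in all 4 Tau-KO samples, as were 4.98% of the genes.

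In 232P alone, 5 of the 8 members had a lower covered share in both samples than in both WT samples, against 41.5% of the genes. They were IL1B, IL37, IL36A, IL1F10 and IL1RN. With 232P replicate 2 alone 5 of 8 were lower, an easier condition for which the share of the genes is not given. After division by the genome's covered share 2 members, IL1B and IL36A, were lower in both 232P samples, against 16.8% of the genes. IL36B and IL36RN were then higher in both 232P samples, as were 10.2%. In 231K, IL1B alone was lower in both samples than in both WT samples, 1 of 8 against 12% of the genes, before and after that division. IL36A was higher in both 231K samples after it, 1 of 8 against 9.76%, and before it was higher within replicate 1 (62.7% against 45.6%) and within replicate 2 (75.9% against 63.3%). Before that division IL36RN was lower in 231K than in WT within replicate 1 (59.9% against 62.5%) and within replicate 2 (66.1% against 71.9%). So was IL36B in 232P (28.0% against 71.2% and 71.2% against 81.8%). For these pairs the share of the genes is not given. No member was higher in both samples of a line than in both WT samples before that division, against 4.72% of the genes in 231K and 0.709% in 232P. Between the lines, 4 of 8 members were lower in 232P than in 231K, against 32.5% of the genes. After division by the genome's covered share 1 of 8, IL36A, was lower, against 15%, and 1 of 8, IL36RN, was higher, against 8.61%. WT samples are shared by the comparisons of both lines, so these counts are not independent.

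No member lost or gained its mark in either line, where lost means marked in both WT samples and in neither sample of the line. Over all protein-coding genes, 0.374% lost the mark in 231K and 1.06% in 232P, and 0.414% and 1.15% lost the mark at the TSS. Gains were 0.185% and 0.0749% for the gene and 0.165% and 0.0649% at the TSS. With shares this low, 0 of 9 members is near the background.

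Over the whole window the mean covered share of WT was 47.3% ± 5.84 (SD, n = 2). That of 231K was 47.2% ± 9.10 and that of 232P was 27.7% ± 17.4 (SD, n = 2 each). 231K differed from WT by -0.114 percentage points, by -2.42 within replicate 1 and by 2.19 within replicate 2, less than the spread between replicates. 232P differed from WT by -19.6 points, at 0.586 times WT, by -27.8 within replicate 1 and by -11.4 within replicate 2. The exact permutation test gave p = 1 for 231K and p = 0.333 for 232P, and groups of 2 cannot give a p below 0.333. The 4 Tau-KO samples together differed from WT by -9.86 points, with an exact permutation p = 0.467, where 0.0667 is the smallest possible. That test treats the 4 samples as separate units, although they are 2 lines with 2 replicates each. Without 232P replicate 1, the difference from WT was -7.28 points for 232P and -2.5 points for Tau-KO.

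These differences moved with the lists themselves. Relative to the covered share of the genome in the same sample, the window stood at 5.65 ± 0.419 (SD, n = 2) in WT, 5.76 ± 0.467 in 231K and 5.99 ± 0.615 in 232P. The difference from WT was then 0.117 in 231K and 0.347 in 232P, both above 0, with an exact permutation p = 0.667 for each. Within replicates 1 and 2 it was 0.151 and 0.0829 in 231K and 0.485 and 0.208 in 232P. The window was lower in 232P in bases covered and not lower in relation to its own list. The ratio itself was highest, at 6.43, in 232P replicate 1, whose list covered 2.39% of the genome. It was lowest, at 5.35 and 5.43, in replicate 2 of WT and 231K, with 9.62% and 9.88%. In between the order was not strict. Whether the division corrects for depth was not tested, here or for the shares of IL1B and the other members. The number of peaks was 148 ± 45.3 (SD, n = 2) in WT, 119 ± 43.8 in 231K and 119 ± 5.66 in 232P, with an exact permutation p = 0.667 for either line against WT. Within replicates 1 and 2, 231K differed from WT by -30 and -28 peaks and 232P by -57 and -1. The number of peaks does not follow the covered share, since 1 wide peak in 1 list can be several short ones in another.

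**Figure D3:**
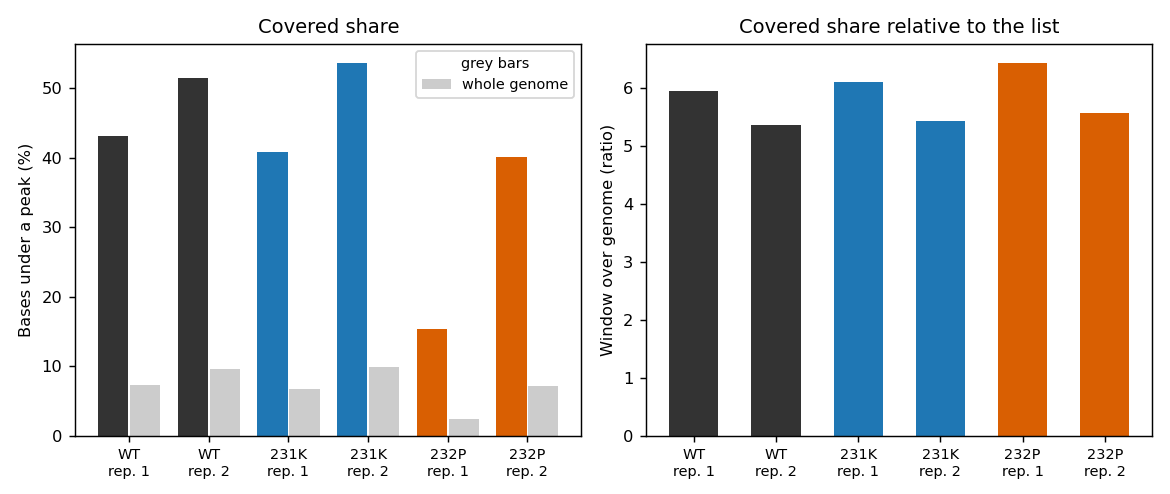
Left, bases under a peak (%) in the cluster window (coloured) and in the whole genome (grey) for each sample. Right, the ratio of both, which lies between 5.35 and 6.43 while the covered share of the window ranges from 15.4% to 53.7%.

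The strength of the peaks was modest in each sample. Fold enrichment is the number of reads at the summit over the local background, each with 1 added. Whether that background came from the ChIP or the input library is not given in the sources used here. The q-value is the caller's p-value corrected over the list. The median fold enrichment of the window's peaks was 3.63 and 4.20 in WT, 4.10 and 4.77 in 231K, and 4.20 and 4.16 in 232P, against 3.38 and 3.78, 3.61 and 3.75, and 3.97 and 3.61 over the whole lists. The median -log10 q-value was 3.03 and 3.73 in WT, 3.40 and 5.27 in 231K, and 2.87 and 3.69 in 232P, against 2.58 and 3.06, 2.73 and 3.12, and 2.41 and 2.83 over the lists. In every sample both medians were above those of the list. The median peak had 10 and 9.5 reads at its summit in WT, 10 and 11 in 231K, and 8 and 9 in 232P, so each single peak rests on few reads.

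The highest fold enrichment at IL1B was 5.16 and 4.20 in WT, 5.33 and 6.43 in 231K, and 3.48 and 3.84 in 232P. The highest -log10 q-value there was 5.28 and 3.73 in WT, 5.51 and 9.08 in 231K, and 1.80 and 3.65 in 232P. Both columns were thus higher in 231K and lower in 232P than in WT, while the covered share was lower in both lines. At IL1RN the highest fold enrichment was 7.54 and 6.30 in WT, 9.43 and 7.09 in 231K, and 7.95 and 5.74 in 232P. The highest -log10 q-value at IL1RN was 10.2 and 8.00 in WT, 14.6 and 9.63 in 231K, and 8.78 and 5.86 in 232P. The groups overlapped at IL1RN in fold enrichment, but 231K was higher than WT within both replicate numbers. At IL37 the highest fold enrichment was 6.35 and 7.15 in WT, 7.38 and 8.34 in 231K, and 5.97 and 5.45 in 232P, and the 3 genotypes did not overlap. At IL36G it was 6.92 and 6.73 in WT, 7.38 and 8.75 in 231K, and 5.14 and 6.18 in 232P. The order was the same as at IL37.

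In 231K the strongest peak had a higher fold enrichment in both samples than in both WT samples at 6 of the 8 members with a peak, IL1B, IL37, IL36G, IL36A, IL36B and IL36RN, against 16.9% of the 3928 genes marked in all 4 samples. Set against the WT sample of the same replicate number, 231K was higher in both pairs at 8 of 8 members, against 32.3% of these genes. The ratio of the 231K mean to the WT mean had a median of 1.17 over the 8 members, from 1.09 to 1.47, and of 1.04 over the genes. By the -log10 q-value it was also 6 of 8, with IL1F10 in place of IL36RN, against 18.2%. In 232P, 4 of the 7 members with a peak in each sample compared, IL1B, IL37, IL36G and IL1F10, were lower than WT, against 34.5% of the 3462 genes, with a median ratio of 0.846 against 0.899. Within replicate numbers the same 4 of 7 were lower in both pairs, against 51.4% of the genes, near the background. By the -log10 q-value the same 4 of 7 were lower, against 55.9%, near the background. This comparison was made after the values were seen and has no test. It rests on summits of 9 to 22 reads in WT and 231K, where a few reads make the difference, and the members lie in 1 domain.

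**Figure D4:**
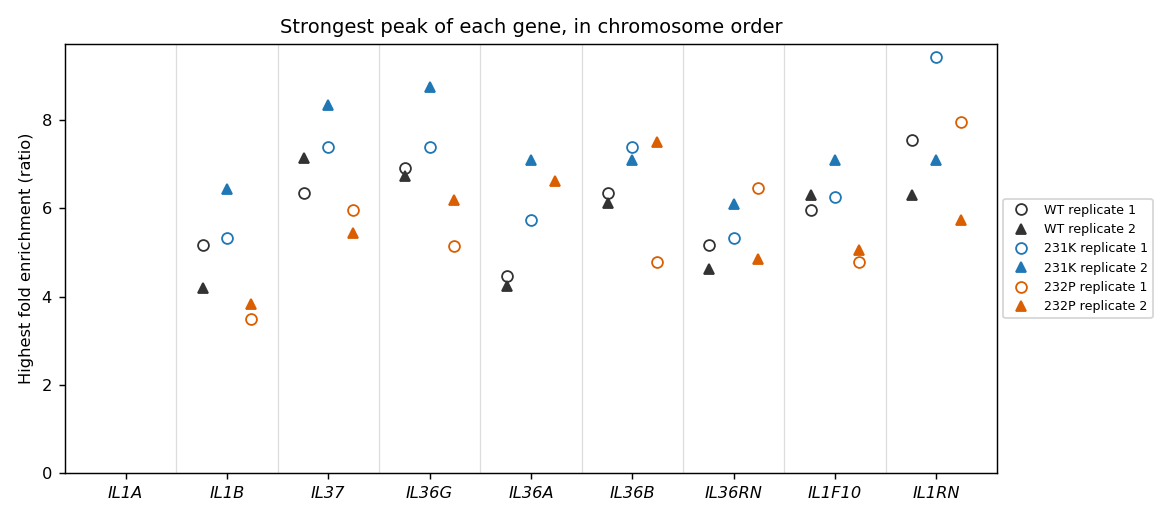
Highest fold enrichment (ratio) of the peaks at each gene with 1 kb on each side, members in chromosome order, circles for replicate 1 and triangles for replicate 2. The 231K samples lie above both WT samples at 6 genes, and IL1A, and IL36A in 232P replicate 1, have no peak and no point.

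Merging the peaks of the 6 lists wherever they shared at least 1 bp gave 65 marks in the window, of which 24, or 36.9%, were in all 6 samples, against 12.1% of 279786 marks in the genome. These 24 marks made up 235 kb of the 273 kb of marks, and a mark can only lengthen as more lists are merged into it. For their order, the -log10 q-value of each mark was taken as a percentile of its list and the weakest of the 6 samples counted. The first was the longest, at chr2:112908342-112941978 (33637 bp), over IL37 and the region to its right. Its highest fold enrichment was 7.74 and 7.15 in WT, 7.38 and 8.34 in 231K, and 6.23 and 7.94 in 232P. The second, at chr2:112833898-112853079, begins in IL1B and runs upstream of it, with 5.96 and 8.41 in WT, 6.15 and 9.17 in 231K, and 7.95 and 7.05 in 232P. The third, at chr2:113118737-113130583, lies in IL1RN, with 7.54 and 5.90 in WT, 9.43 and 7.09 in 231K, and 5.97 and 5.74 in 232P. The fourth lies between IL1F10 and IL1RN at chr2:113080339-113096170. It had 5.53 and 7.15 in WT, 5.74 and 8.75 in 231K, and 5.47 and 5.57 in 232P. The fifth lies at the start of IL36G at chr2:112968604-112974068. It had 4.92 and 6.73 in WT, 7.38 and 8.75 in 231K, and 5.14 and 6.18 in 232P. At none of the 5 did the 4 Tau-KO samples together separate from WT in fold enrichment. At the fifth both 231K samples lay above both WT samples, and 232P lay within the WT range. The share of all marks that do so is not given. All 5 had a peak in every sample.

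In 231K 2 of the 65 marks were lost, or 3.08%, against 3.22% in the genome, and none was gained, against 2.33%. They lie at chr2:112886029-112888405, between IL1B and IL37, and at chr2:113116894-113118030, in IL1RN. In 232P 4 marks were lost, or 6.15%, against 6.87%, and none was gained, against 0.294%. These lie at chr2:112854623-112857633 and chr2:112876672-112878598, between IL1B and IL37, at chr2:112993515-112995591, between IL36G and IL36A, and at chr2:113009075-113009797, between IL36A and IL36B. No mark was lost in both lines, against 2.25% in the genome. The 6 lost marks had 7 to 11 reads at the summit in WT, where the median peak of the window had 10 and 9.5. With all samples, losses were near the background in either line. These counts depend on single libraries. Merged without WT replicate 2, 17 of 86 marks were lost in 231K, or 19.8%, against 17.8% in the genome, and 24 were lost in 232P, or 27.9%, against 25.3%. Without WT replicate 1, 5 of 61 were lost in 231K, or 8.20%, against 16.2%, and 11 in 232P, or 18.0%, against 24.3%. Without 232P replicate 2, 14 of 73 were lost in 232P, or 19.2%, against 16.6%. Without 231K replicate 1 and without 231K replicate 2, 4 of 66 and 5 of 82 were lost in 231K, or 6.06% and 6.10%, against 5.73% and 7.68%. In 232P 7 were lost without 231K replicate 2, or 8.54% against 7.67%, and 7 without 232P replicate 1, or 10.6% against 8.74%. Gains moved as well. In 231K 8 marks were gained without 231K replicate 2, and 2 each without 231K replicate 1, WT replicate 1 or WT replicate 2. Without 232P replicate 2, 1 was gained in 231K. In 232P 2 were gained without 232P replicate 1 and 2 without 232P replicate 2. The genome's share of gains under these settings is not given.

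Other genes of the pathway were taken from a list of 24. Of 10 receptor genes, 9 had a peak at a start site in all 6 samples and the other, SIGIRR, a negative regulator, in 2. By contrast 11.4% of all protein-coding genes had one in all 6. The 9 were IL1R1, the signalling receptor, its decoy IL1R2, the shared coreceptor IL1RAP, the IL33 receptor IL1RL1, the receptor IL1RL2 of the IL36 ligands, the IL18 receptor chains IL18R1 and IL18RAP, and IL1RAPL1 and IL1RAPL2, known from neuronal synapses. Of these, IL1R1, IL1R2, IL1RL1, IL1RL2, IL18R1 and IL18RAP are 6 neighbours at chr2:101991960-102452565, 10.3 Mb to the left of the window, and form 1 region. Its covered share was 48.0% and 62.6% in WT, 50.0% and 67.1% in 231K, and 16.6% and 46.9% in 232P, in the same order of samples as the cluster, except that 231K replicate 1 and WT replicate 1 changed places.

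The 3 other secreted proteins of the list, IL18, IL33 and the binding protein IL18BP, lie outside the cluster and had no peak at a start site in any sample. Of 7 signalling genes, IRAK3, an inhibitory kinase family member, was marked at the TSS in all 6 samples, IRAK1 in both WT samples and 232P replicate 1, and MYD88, the adaptor of the receptors, IRAK2, IRAK4, TRAF6 and TOLLIP in none. Of 4 processing genes, NLRP3, the sensor of the inflammasome that leads to cleavage of the IL1B product, was marked in all 6 and the protease gene CASP1 in none. NLRP3 was covered over 95.2% and 96.4% in WT, 89.9% and 97.5% in 231K, and 78.7% and 91.3% in 232P. PYCARD, the adaptor of the inflammasome, was marked at the TSS in both WT and both 231K samples and in neither 232P sample, with 6.76% and 18.9% covered in WT, 6.78% and 11.4% in 231K, and 0% and 0% in 232P. By the rule used for the members, PYCARD was lost at the TSS in 232P, 1 of 24 against 1.15% of all genes, and IRAK1 in 231K, 1 of 24 against 0.414%.

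The protein-coding genes outside the window whose covered shares in the 6 samples were closest to those of the window, by Euclidean distance, were CDYL2 (distance of 2.30 percentage points), IL18R1 (3.57), IL1RL1 (4.31), MTUS2 (5.11) and SLC25A43 (5.94). IL18R1 was covered over 43.5% and 52.1% in WT, 42.3% and 53.7% in 231K, and 12.3% and 39.7% in 232P. CDYL2 on chromosome 16 was covered over 44.4% and 49.7% in WT, 41.0% and 53.1% in 231K, and 14.9% and 39.8% in 232P. These genes share libraries and depth with the window, and they were chosen for the likeness of their values.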

How the data were processed

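H3K27me3 ChIP-seq was done on WT, 231K and 232P SH-SY5Y cells. Groups and replicate numbers were taken from the labels. Read trimming (trimmomatic), alignment to hg38 (BWA) and peak calling per sample, not pooled (MACS, version 2), were done by the authors. The broadPeak setting is stated, but each deposited list is in narrowPeak format (10 columns). Threshold, duplicate handling and control library are not given in the sources used here. Deposited columns are the fold enrichment, a ratio (summit reads plus 1 over local background plus 1), the -log10 p-value and -log10 q-value, and a score, the whole part of 10 times the last. They are not normalized between samples.

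Summit reads and background were recovered from fold enrichment and p-value (Poisson), and 100% of the peaks on chromosome 2 gave whole reads within 0.001 of the -log10 p-value. Marks are peaks of the 6 lists merged at an overlap of 1 bp or more. Genotypes were compared by exact permutation tests, two-sided, which set a difference against all regroupings of these samples. Read counts per region are not in the lists, so no count model was fitted. The members, lists and tests were chosen with earlier results of these data known. Named are the 9 members, the coding genes in the window and the 3 nearest on each side, 24 pathway genes (for 1 of them the result is not reported here), the 5 most alike genes, the 5 highest ranking marks and all marks lost or gained. Sequences were read from hg38 at the GENCODE starts. Python 3.11.15 with numpy 2.4.6, pandas 2.3.3, scipy 1.17.1 and matplotlib 3.10.9 was used, and the steps were tested on simulated data. Alternatives were stricter q-values, an equal number of peaks (147118), equal depth (summit reads and background thinned, -log10 p-value of at least 2.5, peak widths left as deposited, so that the covered share is only partly corrected for depth), joined peaks, other margins, 50% presence, a replicate block in the permutation and the removal of each replicate in turn. Added after the values were seen were shares relative to the genome, counts of members whose groups do not overlap and the heights of the strongest peaks.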

Additional observations from a re-analysis of the deposited data

How the results depend on the processing

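Of 376 alternative values 56 moved and 20 reversed, and the causes were not tested. No p could fall below 0.05 in these designs and some alternatives leave out a sample that a comparison does not use, so the number of the others says nothing about stability. IL1A had no peak under any alternative list. This was fixed in advance, since those lists only drop deposited peaks or join those within 1 kb. The covered share, 231K minus WT, was 0.279 with a q-value under 0.05, 8.21 when only peaks with a -log10 q-value from 5 upward were kept, 1.82 with lists cut to equal length, 1.25 at equal depth and 0.117 relative to the genome. Relative to the genome, 232P minus WT was 0.347, Tau-KO minus WT 0.232 and 232P minus 231K 0.23. The number of peaks, 231K minus WT, was 7.5 from a -log10 q-value of 5 upward and 0.5 with peaks joined within 1 kb. For 232P minus WT it was 4 with lists of equal length and 10.5 joined, and for Tau-KO minus WT 5.5 joined. For 232P minus 231K, which was 0, it was -1 with a q-value under 0.05, -26.5 from a -log10 q-value of 5 upward, 19 with lists of equal length, 12 at equal depth, 10 joined and 3 without the 20 kb on each side. From a -log10 q-value of 5 upward there were 43 marks, 3 in every sample, 0 lost and 4 gained in 231K and 2 lost in 232P. With that threshold 2 members were marked in every sample, for the gene or the TSS, 1 gained a gene mark and 2 a TSS mark in 231K, 0 members were lower in every Tau-KO sample and 2 in 232P, and the IL1B difference was 0.626. For that threshold, and for the joined, 50%, equal-depth and equal-length settings below, the shares of all marks and genes are not given. The counts of marks and members under these settings can thus not be set against a background. Joined within 1 kb there were 22 marks, 9 in every sample, 1 lost in 231K and 1 in 232P, and 2 members lower in Tau-KO. With 50% of a mark covered, 0 marks were in every sample, 1 was gained in 231K and 7 were lost in 232P. With 50% of the gene covered, 0 members were marked in every sample, 2 in none and 1 was lost in 232P. At equal depth 1 mark was gained in 231K. With lists of equal length 0 members were lower in Tau-KO and 2 in 232P, and relative to the genome 2 in 232P.

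Leaving out each replicate in turn gave, for the covered share, -6.55 to 6.32 (231K minus WT), -31.9 to -7.28 (232P minus WT), -15.3 to -2.5 (Tau-KO minus WT) and -31.8 to -7.17 (232P minus 231K). The number of peaks ranged from -61 to 3 for either line and for Tau-KO minus WT, and from -31 to 31 for 232P minus 231K. Marks lost ranged from 2 to 17 in 231K and from 4 to 24 in 232P, marks gained from 0 to 8 and from 0 to 2, and members lost from 0 to 1 in 232P, for gene or TSS. For marks gained and members lost no share of all marks or genes is given here, so neither range can be set against a background. Members lower than WT ranged from 1 to 4 in Tau-KO, with 4 without 231K replicate 2, and from 5 to 8 in 232P, with 8 without 232P replicate 2. The share of the genes without each of these samples is not given, so these member counts cannot be set against a background. Permuting within the replicate number (replicate block) left the covered share at exact p = 1 for 231K, 0.5 for 232P and 0.444 for Tau-KO. With the block no p below 0.5 for a line or 0.111 for Tau-KO can be had, so it says nothing about stability. The deviations of same-numbered samples correlated at 0.457 to 0.54 over 5503 genes, but the labels do not say that a number marks a batch. The depth limits what an absent peak means, since summits held few reads and a gap says only that no peak passed the threshold.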
